A study of Mus musculus with 2 samples.

Results

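The Myc network is a family of transcription factors that was followed here through 9 genes: Myc and Mycn, their obligate partner Max, the antagonists Mxd1, Mxd3, Mxd4 and Mnt, the large Max partner Mga, and Mlx, which links the family to the Mondo proteins. The members were chosen by gene symbol, from probesets that the platform annotation assigns to exactly 1 gene, and all 9 were found among the 19938 genes measured that way. RNA was taken from i-OSKM-ESC, a derivative of the KH2 line of mouse embryonic stem cells (strain 129). In these cells doxycycline, a drug that works as a transcriptional switch, induces c-Myc together with Klf4, Oct4 and a Sox2 that bears an epitope tag, and both groups carry the inducible genes. One group received doxycycline at 4 µg/mL 24 hours before RNA isolation, and the control group was refed fresh medium without it. Both were plated on gelatin. Whether the line is 1 clone was not given in the sources used here. Each group was read on 1 whole-transcript oligonucleotide array, so the differences below have neither an error between cultures nor a p-value, and the precision is limited by the number of arrays.

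Proteins of this network share a basic helix-loop-helix leucine zipper, with which they pair and bind the E-box, a short DNA motif with the letters CACGTG. Myc and Mycn must pair with Max, and the pairs recruit coactivators that raise transcription of genes for growth and ribosome production. Max also pairs with Mxd proteins, Mnt and Mga, which bring corepressors to the same motif, while Mlx pairs with the nutrient-sensing Mondo proteins and with some of the antagonists. In mouse embryonic stem cells Myc and Mycn support growth and self-renewal, and Max with Mga sits in a Polycomb complex that keeps germ cell genes silent.

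The E-box letters occur in the genes of the network itself. RefSeq promoter windows on GRCm38.p6, which run from 250 bases before to 50 bases after a gene's start, were found for 8 of the 9 members, all but Myc. The motif CACGTG, which reads the same on both strands, was present in 4 of these 8 genes, Max, Mxd4, Mnt and Mlx, against 8.09% of the 27025 genes with a window and 7.15% of the 32851 windows. Of the 8970 genes with a window that passed the expression filter given below, as all members did, 1100 held it. Stretches of 30 bases around each match are shown because these are the letters that the proteins of the family bind, with the E-box in capitals. They lie at chr12:76962234-76962263 on the minus strand for Max, chr5:34187912-34187941 on the minus strand for Mxd4, chr11:74830789-74830818 on the plus strand for Mnt and chr11:101087238-101087267 on the plus strand for Mlx. The first base of the motif lay 3 bases before the start of Max, 219 before that of Mxd4, 123 before that of Mnt and 40 before that of Mlx.
Max: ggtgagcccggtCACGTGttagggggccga
Mxd4: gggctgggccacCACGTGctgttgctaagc
Mnt: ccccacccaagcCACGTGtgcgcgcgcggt
Mlx: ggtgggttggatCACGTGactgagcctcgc
A match describes the letters of the window and is not a measured binding site. Mycn, Mxd1, Mxd3 and Mga had no match in their windows.

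Mycn held another repeated motif. Its window contained TTTGGCGC, letters of the E2F type, at 2 places, searched on both strands, whereas 0.585% of genes with a window had it at least once. This motif was searched after the values of Mycn had been seen. The stretch that holds both copies, in capitals, lies at chr12:12941993-12942022 on the minus strand, and the copies begin 183 and 168 bases before the start.
Mycn: gctTTTGGCGCgaaaggcTTTGGCGCctcc

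The arrays as a whole were alike, with a Pearson r of 0.989 across the genes, which are not independent replicates. The expression filter asked that a gene reach, in at least 1 array, the median of the deposited log2 values (6.48), which 11191 genes did. A gene was called when it passed and differed at least 2-fold. Of 13 embryonic stem cell markers, 12 passed the filter. The median log2 levels of all 13 were 10.77 and 11.08 in the arrays labelled plus and no doxycycline. Of 15 measured fibroblast and feeder markers, 8 passed, at levels up to 7.61 and 7.22, and the summed linear level of all 15 was 1358 and 1177. The stem cell markers had a median difference of -0.44, with 9 of 13 lower, Sox2 called lower, and Utf1 at -0.95 and Tdgf1 at -0.73. Primitive endoderm markers passed in 10 of 11 cases with 0 called, and mesoderm markers in 5 of 7 with 0 called. Of the primitive endoderm markers 7 were lower and 4 higher, with Cubn 1.91-fold lower (9.11 without and 8.18 with doxycycline). Trophectoderm markers passed in 4 of 10. Krt8 was called 3.36-fold higher, whereas Tfap2c was 1.78-fold lower, and Hand1 and Krt18 had differences of 0.30 and 0.08. Neural markers passed in 5 of 8, with Map2 2.52-fold and Tubb3 2.41-fold higher and Neurod1 2.12-fold and Olig2 1.72-fold lower. The part of these marker differences in the values of the network genes, Mycn included, was not tested. The other induced factors gave no settled check of the labels: Pou5f1 (Oct4) was 1.33-fold and Klf4 1.34-fold higher in the array labelled plus doxycycline, and Sox2 was 2.01-fold lower. All directions below therefore rest on the labels. A probeset may read the endogenous transcript, the transgene or both, and the position of the probes was not given in the sources used here.

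All 9 members passed the filter in both arrays, each through a single probeset, and no probeset shared between genes named any of them. Mycn was the only member called, and it was lower. The other 8 members differed by at most 1.30-fold. The background is the share called among the 11191 genes, 0.768% lower and 0.92% higher, against which 1 called gene of 9 is a single gene and not a trend of the list. At 1.5-fold the count of members stayed at 1 lower and 0 higher, where the background was 3.8% lower and 3.24% higher. The differences of the members, plus doxycycline minus no doxycycline on the log2 scale, were positive in 3 and negative in 6, and their median was -0.13, beside 0.0083 over all genes and -0.03 over genes passing the filter. Among genes passing the filter with a promoter window, 57.8% of those with CACGTG and 55.8% of those without it had a negative difference. These shares are the background for sign counts of genes passing the filter, here and below. Counts over all measured genes of a list can also hold genes below the filter. For those the shares are not a like background, and the median over all genes was 0.0083. Because probesets differ in how strongly they bind their targets, levels of different genes were not ordered against each other.

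**Figure D1:**
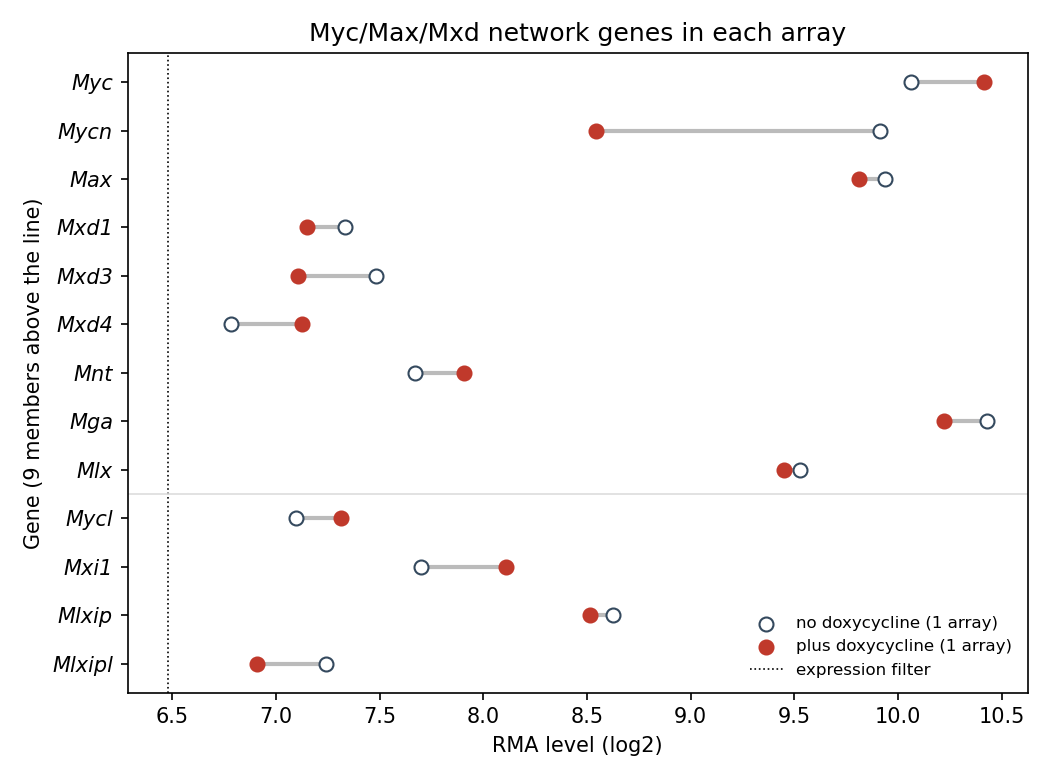
RMA level on the log2 scale (x axis) of the 9 network members and, below the grey line, 4 further genes of the family, with 1 open point for the array labelled no doxycycline, 1 filled point for the array labelled plus doxycycline and the expression filter as a dotted line. The gap of Mycn, from 9.91 to 8.54, is the widest of the 13, and 12 of the 13 genes differ less than 1.5-fold.

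The activators differed in opposite directions. Myc, the induced member, had a log2 level of 10.07 without doxycycline and 10.42 with it. It was therefore 1.28-fold higher, a log2 difference of 0.35 that ranked 1005th from the highest among the 11191 genes. Its difference was 1.91 times the robust SD (the scaled median absolute deviation) of the 997 genes of like mean level, a spread across genes that is not an error between cultures. Mycn, the paralog that embryonic stem cells express alongside Myc, had a level of 9.91 without doxycycline and 8.54 with it.

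Mycn was 2.59-fold lower, a log2 difference of -1.37. It ranked 21st from the lowest of the 11191 genes, and of the 997 genes of like mean level it was the lowest, at 6.61 times their robust SD. Its neighbours in the order were Klf2 at -1.38 and Cacng7 at -1.35. Its value exceeded those of 91.5% of all genes in the control array and of 77.2% in the doxycycline array, and it was above the filter in both. The differences of Myc and Mycn lay 1.72 apart on the log2 scale, which is a 3.31-fold change of the ratio of their signals. This number compares 2 differences and does not give the ratio of the transcripts themselves.

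Genes with levels most like those of Mycn were picked by Euclidean distance over the 2 arrays, among named genes passing the filter. The nearest was Dnmt3l, a cofactor of de novo DNA methylation, at a distance of 0.12 and with levels of 9.80 and 8.50 in the arrays without and with doxycycline. Next came Cacng7, a calcium channel subunit gene, also at 0.12, then Zfp532 at 0.16, Ajuba at 0.23 and Bnc2 at 0.24. With 2 arrays this likeness states only that the 5 genes had similar levels and similar differences.

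Max, the partner that Myc, Mycn, the Mxd proteins, Mnt and Mga share, differed little. Its level was 9.94 without and 9.81 with doxycycline, 1.09-fold lower, and its log2 difference of -0.13 was 0.679 times the robust SD of genes of like level. Mlx, the corresponding hub of the Mondo branch, had 9.53 and 9.45, a difference of -0.08. It lay at percentile 43.3 of genes of like level. Both hubs thus lay within the bulk of genes of their brightness.

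The antagonists did not share a direction. Mxd3, a Mad protein known from dividing cells, had a level of 7.48 without and 7.11 with doxycycline and was 1.30-fold lower. Mxd1, a Mad protein known from differentiating cells, had 7.33 and 7.15 and was 1.14-fold lower. Against these, Mxd4 was 1.27-fold higher, with 6.78 without and 7.12 with doxycycline.

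Mnt, a broadly expressed repressor that opposes Myc, was 1.18-fold higher, with levels of 7.67 and 7.91. The log2 differences of the 4 antagonists were -0.38 for Mxd3, -0.18 for Mxd1, 0.34 for Mxd4 and 0.23 for Mnt, and each was at most 1.28 times the robust SD of genes of like level. The 3 Mxd genes had levels between 6.78 and 7.48, near the filter, where RMA compresses differences. Mga, which carries a T-box as well as the zipper, had 10.43 without and 10.22 with doxycycline, a difference of -0.20 at percentile 17.0 of genes of like level.

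**Figure D2:**
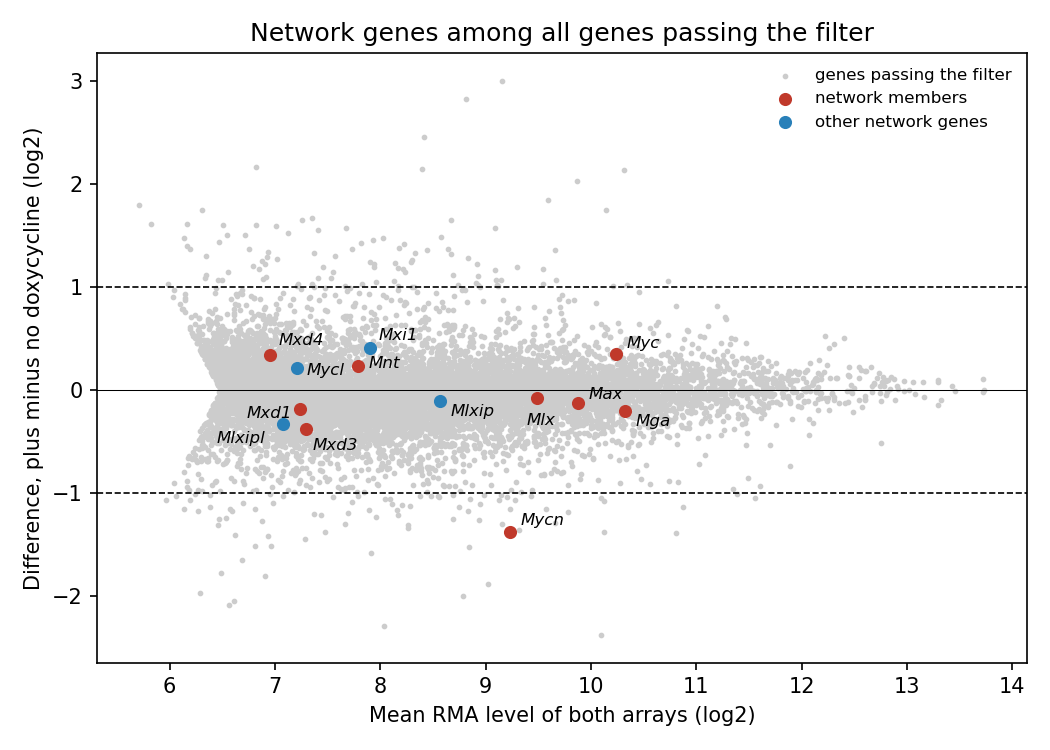
Log2 difference, plus minus no doxycycline (y axis), against the mean log2 level of both arrays (x axis) for the 11191 genes passing the filter, with the 9 members in red, the 4 further family genes in blue and dashed lines at 2-fold. Mycn at -1.37 lies below the lower line at the edge of genes of its brightness, while the other 12 lie between -0.38 and 0.41.

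The 4 remaining genes of the family were below 2-fold and below 1.5-fold. Mxi1, the Mad protein often called Mxd2, was 1.33-fold higher, with a level of 7.70 without and 8.11 with doxycycline. Mycl, the third Myc paralog, was 1.16-fold higher (7.10 and 7.31). Mlxip, which encodes MondoA, was 1.08-fold lower (8.62 and 8.52), and Mlxipl, which encodes ChREBP, was 1.26-fold lower (7.24 and 6.91). Of the 5 Mad and Mnt repressor genes, Mxd4, Mnt and Mxi1 were thus higher and Mxd1 and Mxd3 lower, all by less than 1.5-fold.

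Proteins that work with the network were examined by list. Of 18 measured coactivators of Myc, which include histone acetyltransferase and chromatin remodelling subunits, 0 were called. Their median was -0.14, with 15 negative differences, and they ran from Brd8 (-0.29), Smarcb1 (-0.28) and Dmap1 (-0.27) to Wdr5 (0.23). Of 9 measured genes listed as corepressors of Mxd proteins, Mnt or Myc, 1 was called. It was Dnmt3a, a DNA methyltransferase, 3.68-fold lower with levels of 9.96 without and 8.08 with doxycycline. The Sin3 scaffolds that bind Mxd proteins had -0.10 for Sin3a and -0.11 for Sin3b. The deacetylase genes Hdac2 and Hdac3 had 0.30 and -0.15. The list also held Mxi1, itself a Mad protein of the family, which had its highest value (0.41). The list's median was -0.03.

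Genes that control the life span of Myc protein gave 0 calls among 20 measured, with a median of -0.08. The largest difference was that of Ppp2r5a, a regulatory subunit of protein phosphatase 2A, which was 1.59-fold lower (10.66 without and 9.99 with doxycycline). Set, an inhibitor of that phosphatase, had 0.28, and Trpc4ap, a ubiquitin ligase adaptor, had -0.27. Fbxw7, the ubiquitin ligase subunit that marks Myc for degradation, lay below the filter in both arrays (6.17 and 6.03). Of 19 signalling and RNA-binding regulators of Myc genes 17 passed the filter, 0 were called and 3 were at least 1.5-fold lower, where 3.8% of all genes passing the filter were. These were Rbpj, the DNA-binding partner of Notch (1.98-fold, 9.83 and 8.85), Lifr, the LIF receptor (1.65-fold, 9.71 and 8.99), and Stat3, its effector (1.52-fold, 9.89 and 9.28).

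Targets that Myc is known to raise showed small differences of both signs. Of 22 ribosome biogenesis genes 15 were higher and 7 lower, 0 were called, and the median was 0.04. They spanned -0.15 for Polr1a, a subunit of RNA polymerase I, to 0.25 for the nucleolar helicase gene Ddx21, and Nolc1 had 0.15. Of 28 metabolism and translation genes 15 were higher and 13 lower, with 0 called and a median of 0.02. Prdx3, a mitochondrial peroxiredoxin, was highest at 0.42, the purine synthesis gene Ppat had 0.29, the folate enzyme gene Mthfd2 0.29, and its cytosolic relative Mthfd1 was lowest at -0.26.

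Of 17 cell cycle targets 13 were lower, 0 were called, and the median was -0.11. The largest differences were those of the cell cycle transcription factor genes E2f2, 1.64-fold lower (7.94 without and 7.23 with doxycycline), and E2f1, 1.36-fold lower (9.07 and 8.62). Tyms, which makes thymidylate, had -0.33.

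Genes that Myc is known to lower differed in both directions. Of the 20 measured, 10 were higher and 10 lower, and the median was -0.03. Ndrg1, a stress and differentiation gene repressed by Myc and Mycn, was 2.99-fold higher, with a level of 6.88 without and 8.46 with doxycycline. Gadd45a, a growth arrest gene, was 2.32-fold lower (8.78 and 7.56), and Klf6 was 2.01-fold lower (7.46 and 6.45), a call lost with quantile normalization (-0.99) and with 32 added to the linear values (-0.80). Cdkn1b, the inhibitor p27, had -0.50, Col1a1 0.45 and Cebpa 0.32. In this list 16 genes passed the filter, 2 of them, Klf6 and Pdgfrb, through the control array alone and 1, Cebpa, through the doxycycline array alone. The list shares Col1a1, Col3a1 and Pdgfrb with the fibroblast markers, whose median over 15 measured genes was 0.25, and Gata6 with the primitive endoderm markers. The part of other cell types in these values was not tested, and in bulk RNA fewer cells of a type and less RNA per cell cannot be told apart.

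**Figure D3:**
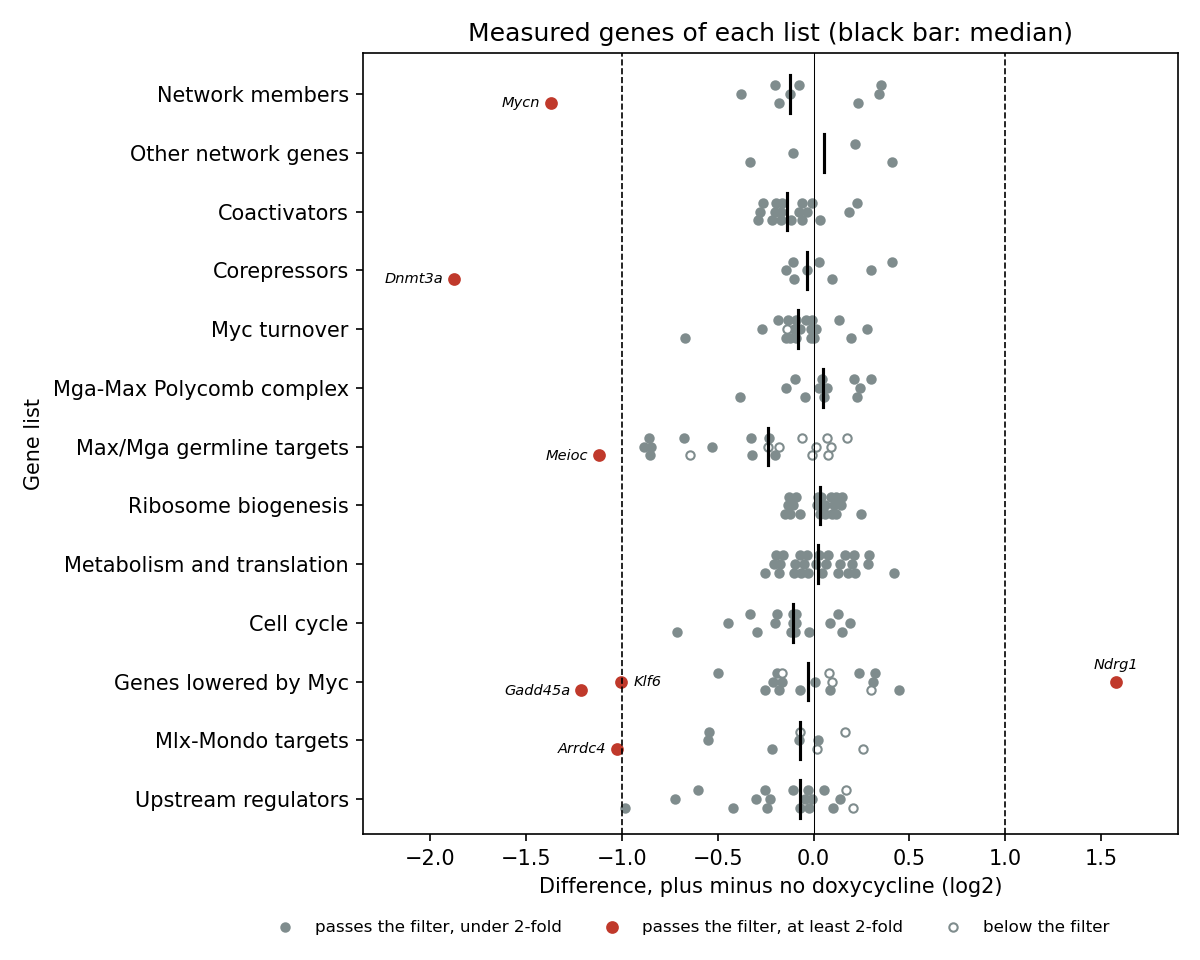
Log2 difference, plus minus no doxycycline (x axis), of every measured gene of 13 lists (y axis), with filled points for genes passing the filter, open points for genes below it, red points for genes called at 2-fold and a black bar at the median of all measured genes of a list. The ribosome biogenesis genes lie between -0.15 and 0.25, whereas the germ cell targets of Max and Mga reach -1.12 at Meioc, and 5 of the lists, the members included, hold at least 1 called gene.

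The Polycomb complex that holds Mga and Max gave 0 calls among 12 genes, with a median of 0.05. L3mbtl2, one of its defining subunits, was 1.30-fold lower (9.55 without and 9.17 with doxycycline), Hdac2 had 0.30, E2f6, its second DNA-binding subunit, had 0.24, and Pcgf6 had 0.21. Germ cell genes that this complex silences in embryonic stem cells were lower in 16 of 21 measured cases, with a median of -0.24 over all 21. Of these, 11 passed the filter. Of the 11, 4 passed through the control array alone, so the filter fixed the direction of those 4. The other 7, which passed in both arrays, were all lower. Among them Meioc, a meiosis gene, was called at 2.18-fold lower (8.85 and 7.72).

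Mael, a gene of the piRNA pathway, had 8.06 without and 7.20 with doxycycline, 1.82-fold lower. Zcwpw1, a histone reader of meiotic cells, was 1.80-fold lower (7.77 and 6.93), and Ddx4, a germ cell helicase gene, 1.25-fold lower (9.07 and 8.74). Dazl and Tex11 had -0.88 and -0.85, with levels in the doxycycline array below the filter (5.72 and 6.16). The 10 genes below the filter were split, with 5 negative differences (Slc25a31, Stk31, Sycp1, Tdrd1 and Smc1b) and 5 positive ones (Tex101, Taf7l, Tdrkh, Spo11 and Ccnb3), so the positive differences of the list were all dim. Of the 7 genes that passed in both arrays, Meioc, Mael and Zcwpw1 were at least 1.5-fold lower. Over all genes passing the filter, in 1 array or both, the share this much lower was 3.8%. Stem cell markers were lower beside these genes, with a median difference of -0.44, and their part in the values of the germ cell genes was not tested.

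The E-box letters were frequent in these germ cell genes. Of the 19 measured genes of the list with a promoter window, 10 held CACGTG, 52.6% against the 8.09% of all genes given above. The list holds known targets of proteins that bind these letters, so this share is not independent of the choice of list. The 10 genes with the letters had a median difference of -0.24, the same as the whole list to this precision. Meioc, Dazl and Zcwpw1 had windows without the letters. Stretches from Mael at chr1:166238950-166238979 (minus strand), Hormad1 at chr3:95559608-95559637 (plus strand), the first of its 2 copies, and Ddx4 at chr13:112652322-112652351 (minus strand) show the motif, in capitals, in genes that Max and Mga are known to silence.
Mael: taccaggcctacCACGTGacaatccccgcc
Hormad1: caaagggtgcgcCACGTGccagtgacagtt
Ddx4: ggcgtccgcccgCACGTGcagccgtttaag
Hormad1, a gene of meiotic chromosome axes, had levels of 6.59 without and 5.91 with doxycycline. It passed the filter through the control array alone, so it had to be lower.

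Targets of the Mondo branch, through which Mlx acts, were measured for 10 genes, of which 6 passed the filter in both arrays. Arrdc4, an arrestin-like gene that responds to glucose, was called, 2.04-fold lower with levels of 9.06 without and 8.04 with doxycycline. Its log2 difference of -1.03 lay near the threshold, and the call was lost with the loess trend removed (-0.95), with quantile normalization (-0.97) and with 32 added to the linear values (-0.94). Txnip, the best known MondoA target, was 1.46-fold lower (10.63 and 10.08), its relative Arrdc3 1.46-fold lower (9.09 and 8.54) and the lipogenic gene Fasn 1.16-fold lower (10.92 and 10.70). The median over all 10 was -0.07, and the 4 genes below the filter included Pck1 at 0.26. The promoter window of Arrdc4, shown as the called member of the list, held CACGTG at chr7:68749414-68749443 on the minus strand.
Arrdc4: aaaggtcctgtgCACGTGcactatggtgtc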

How the data were processed

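The deposited table holds 1 log2 value for each of 35556 probesets and each of the 2 arrays. The authors made these log2 values with Affymetrix Expression Console and RMA, per the submitters' processing notes, and no version, genome build or probe annotation was given in the sources used here. RMA equalises the arrays, so a shift shared by most transcripts would not show, and it compresses differences of dim genes. Depth has no meaning here, and the table gives no detection call.

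The platform annotation assigned 21789 probesets to exactly 1 gene, 1621 to several and 12146 to none. A gene's value was the mean of its own probesets, and all 13 family genes kept their symbol in the GRCm38.p6 gene table. Genes of like mean level were taken from 20 bins over all genes. With 1 array a group no test was made. Spread was described by the robust SD and by the SD of a probeset's log2 difference within its gene. The latter was 0.167 over 492 genes with 2 probesets passing the filter. The steps were tested on simulated data.

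The members and lists were chosen with earlier results of these data known. Named were all members, the 4 further family genes, the called genes and up to 3 others of largest difference in each of 12 lists (196 of their 210 genes had a probeset of their own, and the rest were not analysed here), the genes nearest to a called member, and the other induced factors. Further names were chosen after their values were seen, to illustrate a list: Wdr5, Sin3a, Sin3b, Fbxw7, Pcgf6, Zcwpw1, Ddx4, Hormad1, Mthfd1, Pck1, Pdgfrb and the germ cell genes below the filter. So were Mcf2, Bnip3, Gbx2, Tmem108, S100a6 and Zdhhc23, to illustrate the called genes with the E-box letters. A planned comparison of member proteins was not made, because no protein sequences were used here. The software was pandas 2.3.3 and NumPy 2.4.6 in Python 3.11.15, with loess from statsmodels 0.14.6 and plots from matplotlib 3.10.9. Alternatives were other filters, a loess trend removed, quantile normalization, an offset of 32 on the linear scale, the brightest probeset and a 1.5-fold threshold.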

Additional observations from a re-analysis of the deposited data

How the results depend on the processing

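All 9 members kept the sign of their difference under loess, quantile normalization, the offset and the brightest probeset, moving by at most 0.08, and Mycn ran from -1.37 to -1.30. Each member has a single probeset, so the brightest probeset gave the same value and the offset could not change a sign. Only loess and quantile normalization could have changed one. The count of called members stayed at 1 lower and 0 higher under all 8 alternatives run on it. The other filters could not change this count, because all members passed in both arrays, and neither could the brightest probeset. Only loess, quantile normalization, the offset and the 1.5-fold threshold could have changed it. The median of all genes lay between 0.00089 and 0.02. Among the lists, the 1.5-fold threshold gave 1 lower gene for Myc turnover, 6 for the germ cell targets (3 of which passed the filter through the control array alone, so that they had to be lower), 1 for the cell cycle targets and 3 for the upstream regulators. Arrdc4 was no longer called, leaving 0 in its list, with loess, quantile normalization or the offset. Genes that Myc lowers had 1 called lower in place of 2 when both values had to reach the filter, with quantile normalization and with the offset. With the offset, Klf6 had -0.80 and Ndrg1 1.36. No paired analysis was possible because each group has 1 array, and for the same reason no replicate could be left out. The table gives no detection call, so levels near the filter cannot be told from background.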

Other observations

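Across all genes, the E-box letters in the promoter window were set beside the difference, a comparison chosen after the data had been seen and described without a test. Of the 11191 genes passing the filter, 8970 had a window. Among the 1100 with CACGTG the median difference was -0.05, with 14 genes (1.27%) called lower and 8 (0.727%) higher. Among the 7870 without it the median was -0.03, with 43 (0.546%) called lower and 71 (0.902%) higher. Some of these genes passed the filter only through the array in which they were higher: 5 of the 14 and 3 of the 8 with the letters, and 13 of the 43 and 24 of the 71 without them. Of genes that passed in both arrays, 9 of 1035 with the letters were called lower and 5 higher, against 30 and 47 of 7292 without them. The 14 included Mcf2 (-2.09), Dnmt3a (-1.88), Bnip3 (-1.80), Dnmt3l (-1.30) and Gbx2 (-1.17), and the 8 included Tmem108 (1.65), S100a6 (1.40) and Zdhhc23 (1.37). Of those named, Mcf2, Bnip3, Tmem108 and S100a6 passed through 1 array alone. Dnmt3l was also the gene nearest to Mycn in level. The letters TTTGGCGC, found in Mycn, were set beside the difference in the same way. Among the 108 genes with them the median was -0.03, with 1 gene (0.926%), Mycn itself, called lower and 0 higher. Among the 8862 without them the median was -0.04, with 56 (0.632%) called lower and 79 (0.891%) higher.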
